A study of Mus musculus with 6 samples.

Results

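Resting oligodendrocyte progenitor nuclei were Pdgfra-positive glial progenitor nuclei with at most 1 UMI of a pair of division genes, in the forebrain of 16-day-old mice, and 1073 of 75867 nuclei belonged to them. Nuclei were chosen by their own transcript counts, read as UMIs (unique molecular identifiers, 1 for each captured RNA molecule), and resting names the class by this rule only. A member held at least 2 UMIs of Pdgfra and at least 1 UMI of at least 2 of the genes Cspg4, Vcan, Smoc1, C1ql1 and Megf11. It also held at most 1 UMI in total of each of 4 excluded sets, which were the differentiation genes Enpp6, Gpr17, Bmp4 and Neu4, the fibroblast genes Dcn, Col1a2 and Slc6a13, the neuronal genes Slc17a7, Slc17a6, Gad1 and Gad2, and the division genes Top2a and Mki67. Because these counts chose the members, they describe the class and test nothing about it, and every comparison of classes from the same nuclei is given as a description with no test.

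The study profiled forebrain nuclei by droplet 3' single-nucleus RNA sequencing, with 1 library per mouse, from 3 WT and 3 Npc1-/- mice at postnatal day 16 that were labelled as untreated. Per the study's methods, the mice were littermates of both sexes, F1 hybrids of BALB/cJ and C57BL6/J parents that carried the Npc1nih null allele. The deficient mice thus lacked functional Npc1 protein, a lysosomal cholesterol exporter, in every cell. Whole forebrain was frozen and homogenised, so that nuclear RNA, which is rich in unspliced transcripts, was read. The sources used here do not pair the barcode suffixes 1 to 6 with the mice, so a library carried no genotype, WT was not compared with Npc1-/-, and each library is given by its number.

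Oligodendrocyte progenitors, also called NG2 glia, are the cells that divide and differentiate to supply myelinating oligodendrocytes, and many of them persist in the adult brain. Platelet-derived growth factor acts on them through Pdgfra and keeps them proliferating. On leaving this state they pass through a committed precursor stage that turns on Enpp6 and Gpr17 and then build myelin. Progenitors also receive synapses from neurons, and glutamate receptors, GABA receptors and voltage-gated channels are known features of their membrane.

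Promoter sequences of 3 of the genes that led the class, described further on, are shown because each gene was at least 8-fold higher in the members than in all other nuclei and its promoter held 2 matches to a motif bound by transcription factors of this lineage. The noncoding 6030407O03Rik also met this and is not shown, since only protein-coding genes were printed. They run 5' to 3' from 250 bases before to 50 bases after the RefSeq transcription start (build GRCm38.p6). Capitals mark ACAAAG or ACAATG on either strand, the core bound by SOX factors such as Sox10, or CAGCTG, an E-box of the kind bound by basic helix-loop-helix factors such as Olig2.
Lhfpl3, chr5:22745804-22746103, plus strand: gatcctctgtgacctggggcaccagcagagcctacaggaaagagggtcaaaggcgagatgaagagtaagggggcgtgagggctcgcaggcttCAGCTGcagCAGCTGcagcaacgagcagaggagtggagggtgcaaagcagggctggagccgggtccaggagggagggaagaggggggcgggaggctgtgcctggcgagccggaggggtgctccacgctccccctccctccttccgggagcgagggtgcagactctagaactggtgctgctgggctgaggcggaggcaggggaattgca
Sema3d, chr5:12382916-12383215, plus strand: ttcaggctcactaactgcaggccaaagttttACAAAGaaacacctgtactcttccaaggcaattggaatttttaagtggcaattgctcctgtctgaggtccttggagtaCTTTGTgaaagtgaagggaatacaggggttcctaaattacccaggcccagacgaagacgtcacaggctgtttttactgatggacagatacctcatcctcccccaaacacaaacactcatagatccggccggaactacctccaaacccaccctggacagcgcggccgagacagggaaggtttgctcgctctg
Myt1, chr2:181763082-181763381, plus strand: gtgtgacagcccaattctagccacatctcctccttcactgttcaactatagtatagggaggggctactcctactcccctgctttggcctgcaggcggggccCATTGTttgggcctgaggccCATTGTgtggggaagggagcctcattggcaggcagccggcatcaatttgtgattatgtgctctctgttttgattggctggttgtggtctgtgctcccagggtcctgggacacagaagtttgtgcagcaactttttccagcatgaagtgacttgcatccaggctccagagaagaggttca
Of the 20 leading genes, 15 had a promoter in the RefSeq table. A SOX core was found in 6 of these 15 genes and in 31.7% of all 27025 genes of the table, and the E-box in 6 of 15 and in 18.3%. No match is shown to be a binding site.

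The rule removed nuclei in steps. At least 2 UMIs of Pdgfra left 3162 nuclei, the further markers left 2255, the absence of differentiation genes left 1817, of fibroblast genes 1726, of neuronal genes 1149 and of division genes 1073. Exactly 2 UMIs of Pdgfra were found in 438 members (40.8%), the median was 3 and the highest count 13. Vcan, a chondroitin sulphate proteoglycan, was read in 85.6% of members, Megf11 in 84.8%, Cspg4, which encodes the NG2 proteoglycan, in 57.3%, Smoc1 in 38.0% and C1ql1 in 22.6%. All 5 of these genes were read in 41 members, 4 in 192, 3 in 441 and 2 in 399. A single UMI of an excluded set was allowed and common, with 419 members (39.0%) holding 1 neuronal UMI and 372 (34.7%) holding 1 UMI of the differentiation set. A UMI of Top2a or Mki67 was held by 38 members (3.54%). On the other side of the Pdgfra limit, 699 nuclei met every other criterion with 1 UMI of Pdgfra. Their Sox10 level was 176 CPM (counts per 1000000 UMIs of the group), against 181 in members with 2 UMIs and 181 in members with 3 or more. Levels of Lhfpl3 were 3970, 4710 and 5241 CPM in the same order. With no Pdgfra UMI, 1792 nuclei met the other criteria and Sox10 stood at 51.6 CPM.

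Members made up 1.41% of nuclei (95% Clopper-Pearson interval 1.332 to 1.501), and this and all later intervals cover counting error only, not variation between mice. The share was lowest in library 4 at 1.10% (0.922 to 1.30; 134 of 12189 nuclei), was 1.22%, 1.31%, 1.52% and 1.58% in libraries 6, 3, 1 and 2, and was highest in library 5 at 1.70% (1.46 to 1.96; 183 of 10792). The interval of library 4 did not overlap those of libraries 1 (1.32 to 1.74), 2 (1.39 to 1.78) and 5. The intervals of neighbouring libraries in this order overlapped. The median depth of members was 3675 UMIs (range 1100 to 22238) over 2020 genes, with library medians from 3000 in library 5 to 4528 in library 4, and members held 4675332 UMIs in all, 411142 to 1201569 per library. Depth was therefore lowest in the library with the highest share, and its part in the share was not tested. Library 4 also stood apart in expression, with the highest summed level of excitatory neuron markers in members, at 643 CPM against 270 to 488 in the other libraries. Without library 4 the share was 1.47%. It became 0.837% with at least 3 UMIs of Pdgfra and 0.492% with no UMI of the excluded sets. Of the members, 16 had a barcode sequence that also occurred in another library, and no barcode was held by members of different libraries.

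**Figure D1:**
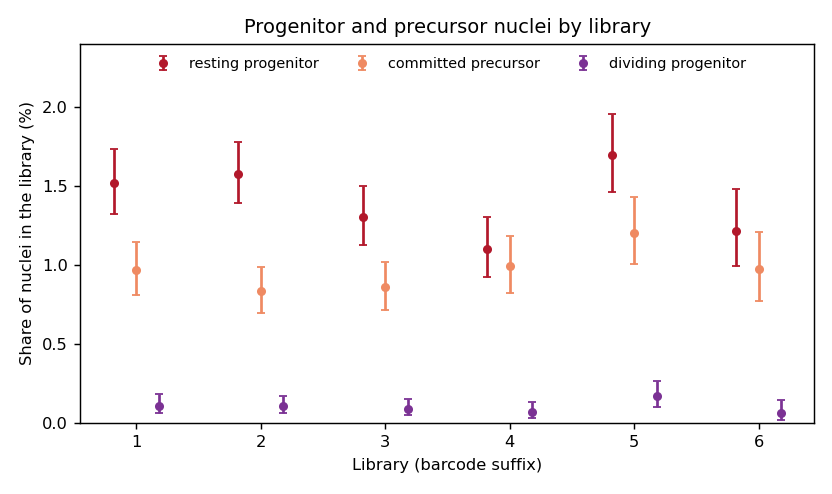
Share of nuclei (%) in each of the 6 libraries (barcode suffix) that were resting progenitor, committed precursor or dividing progenitor nuclei, with 95% Clopper-Pearson intervals as bars. Resting progenitor shares ran from 1.10% in library 4 to 1.70% in library 5, and dividing progenitor shares were at most 0.167%.

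The stages on either side were set beside the members. Dividing progenitors met the same rule except that they held at least 2 UMIs of Top2a and Mki67 together, and numbered 76 nuclei, 5 to 18 per library. Committed precursors held at least 3 UMIs of Enpp6, Gpr17, Bmp4 and Neu4 from at least 2 of these genes and at most 1 UMI of Mog, Mag, Mobp, Mal and Opalin, and numbered 725, 80 to 134 per library. Dividing nuclei were 6.61% (5.25 to 8.21) of resting and dividing progenitors together, with library values from 4.76% to 8.96% whose intervals all overlapped. Committed nuclei were 40.3% (38.0 to 42.6) of resting and committed nuclei together, lowest in library 2 at 34.5% (29.8 to 39.5) and highest in library 4 at 47.5% (41.2 to 53.8). Median depth was 4462 UMIs in dividing and 4003 UMIs in committed nuclei.

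Levels of all genes are CPM of a class, and a level is compared between classes for the same gene, not between genes, since 3' counts are not scaled by length. A gene was called higher or lower where the log2 ratio of joined levels was at least 1 or at most -1 and the direction was the same in all 6 libraries. The 39 genes used by any class rule were left out. Against committed precursors 351 of 11744 genes were called higher (2.99%) and 372 lower (3.17%). The median log2 ratio of all tested genes was 0.02, and without library 4 the counts were 401 and 375. Against dividing progenitors 236 of 10302 were higher (2.29%) and 186 lower (1.81%), with a median of 0.06, and TMM scaling gave 439 higher and 155 lower with a median of 0.16. The dividing class held 5 to 18 nuclei per library. A library with no dividing UMI of a gene counted as higher if members held any. For genes of few UMIs, the same direction in 6 of 6 libraries therefore adds little here. The count lower became 106 with at least 3 UMIs of Pdgfra, 60 with no UMI of the excluded sets and 68 after thinning to 2000 UMIs per nucleus. Against all other nuclei 659 of 22066 were higher (2.99%) and 1005 lower (4.55%), with a median of 0.11. Every later count of called genes in a list is to be read beside these shares of all tested genes. The mean of per-nucleus CPM gave 532 higher and 1686 lower there and moved that median to -0.04.

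Droplets also capture free RNA, so levels were read beside microglia (945 nuclei, median 2805 UMIs) and endothelial nuclei (3039 nuclei, median 3817 UMIs), 2 classes of other lineages. Of 9943 genes with at least 50 UMIs in members, 918 (9.23%) stood above both in all 6 libraries. Genes entered by their UMIs in members alone, and the lists were chosen with earlier results of these data known. Counts of list genes beside this share are therefore descriptions and test nothing. Pdgfra was among the genes used by class rules. It stood at 0 CPM in both of these classes, as in astrocytes, excitatory neurons and mature oligodendrocytes, against 22.7 CPM in all other nuclei. This 0 is therefore read as a feature of how the classes were chosen and not as a finding. The part of such a Pdgfra-free reference in the counts above microglia and endothelium was not tested. Of marker lists of 8 other cell types, with 7 genes each, those of microglia and endothelium could not exceed these same classes, and the rule limited neuronal and fibroblast UMIs, so their counts carry no information. The same holds for the list of pericytes and smooth muscle, whose sum was 1646 CPM in the endothelial class. Of the other lists, none of 6 astrocyte and 2 ependymal genes with enough UMIs stood above both in 6 of 6 libraries. No tested gene of the 8 lists was called higher in members than in committed precursors, against 2.99% of all tested genes. Yet the summed log2 ratio was 0.54 (0.40 to 0.69) for endothelial and 0.50 (0.44 to 0.56) for astrocyte markers. It was 0.45 (0.29 to 0.61) for pericytes and smooth muscle, and ran from 0.00 to 0.24 for neuronal and microglia markers. Ependymal and fibroblast markers stood at -0.13 and -0.48. Endothelial genes used by class rules ran from 0.12 for Pecam1 to 1.30 (1.05 to 1.56) for Flt1. The lists' summed levels in members had library ranges of 270 to 643 CPM for excitatory neurons, 53.5 to 128 for inhibitory neurons, 1062 to 1611 for astrocytes, 110 to 280 for microglia, 134 to 361 for endothelium, 103 to 280 for pericytes and smooth muscle, 31.6 to 120 for fibroblasts and 76.4 to 168 for ependyma. No gene of these lists was at 0 in members. Against dividing progenitors the endothelial genes Adgrl4 (1.81, 0.66 to 3.27) and Emcn (2.57, 0.04 to 7.89) and the ependymal gene Cfap54 (1.84, 0.90 to 2.98) were called higher, and the part of free RNA in these was not tested.

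Lineage genes outside the rule were read in members as well. Sox10, the transcription factor that defines the oligodendrocyte lineage, stood at 181 CPM in members, with a lowest library value of 84.96 in library 4, a median of 184 and a highest of 277 in library 6. It was 31.9 CPM in microglia and 12.8 in endothelium, and lay above both in all 6 libraries. With every nucleus thinned to 2000 UMIs, which kept 1007 members and 738 microglia, a Sox10 UMI was found in 30.6% of members and 4.47% of microglia (51.4% of members unthinned). Olig1 and Olig2, the paired lineage factors, which are named for their textbook role and not by the naming rule, were 1.56 (1.38 to 1.74) and 2.58 (2.35 to 2.80) above all other nuclei on the log2 scale.

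The 20 genes with the largest ratio over all other nuclei, among those with at least 100 UMIs in members, led the class. All 20 were above microglia and endothelium in 6 of 6 libraries, which the choice largely fixed, since these nuclei are among all other nuclei. Against committed precursors 10 of the 20 were called higher and 1, Inava, lower (47.9 against 113 CPM). S100a2, at 35.9 against 35.7 CPM, and Gucy2f, at 30.4 against 28.6 CPM, were higher in 3 of 6 libraries, and C430049B03Rik and A930009A15Rik had ratios of -0.43 and -0.83. First was the lincRNA Gm19299 (chr9:67133560-67213918, plus strand, GENCODE vM21 on GRCm38), at 77.9 CPM and 4.14 (3.98 to 4.30) on the log2 scale over all other nuclei. Next were Shc4, an adaptor protein of receptor tyrosine kinases, at 162 CPM and 4.001 (3.89 to 4.11), S100a2 at 3.98, Tmem255b at 3.92 and Rlbp1, a retinaldehyde-binding protein, at 3.68 (3.46 to 3.90). Lhfpl3 had the highest count of the 20, with 23546 UMIs. Its level was 4005 CPM in library 4, the lowest, 5044 at the median and 5835 in library 6, the highest, against 287 CPM in microglia and 171 in endothelium. At 2000 UMIs per nucleus 99.8% of members held a Lhfpl3 UMI, and 26.96% of microglia did.

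Secreted and receptor genes were also among the 20. Sema3d, a secreted guidance semaphorin whose promoter with 2 SOX cores is shown above, was 153 CPM in library 3 and 426 in library 5, with a median of 234. Matn4, a matrix protein, stood at 96.7 CPM, Emid1 at 305 CPM, Rnf43, a ubiquitin ligase that removes Wnt receptors, at 111 CPM, and Calcrl, a receptor for calcitonin-family peptides, at 154 CPM. Cacng4, an auxiliary subunit of AMPA receptors, stood at 526 CPM (442, 531 and 610.5 as lowest, median and highest library) against 35.2 in microglia and 25.8 in endothelium. Noncoding genes numbered 5 of the 20. Gm42948 (chr5:23200920-23223796, minus strand, antisense) lies inside Lhfpl3 (chr5:22746059-23275597, plus strand), and both were in the 20, with Gm42948 at 76.6 CPM.

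**Figure D2:**
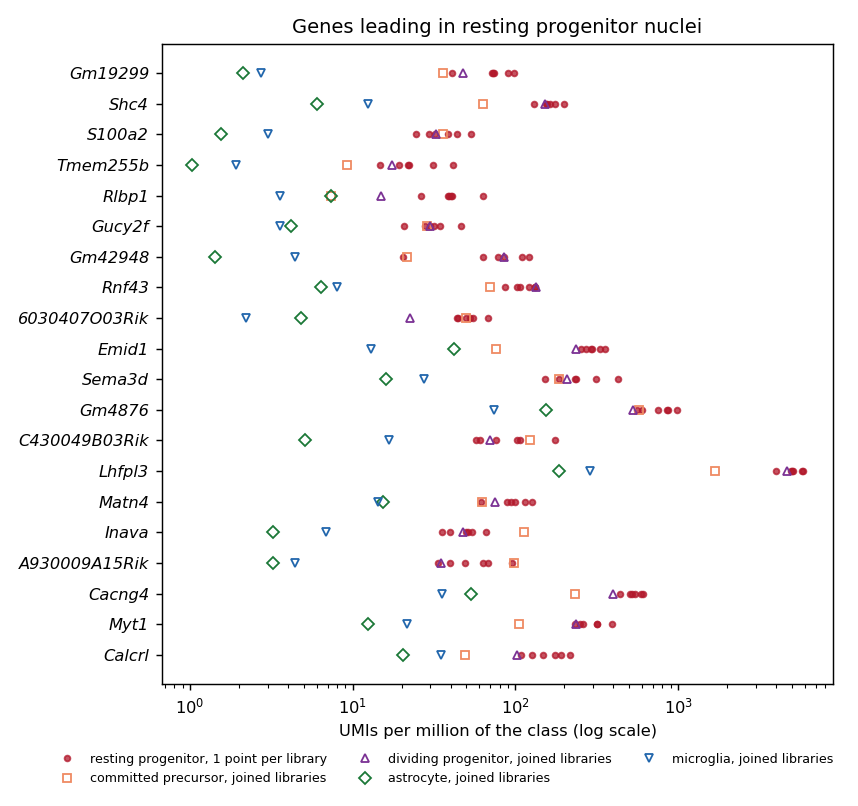
Levels (CPM of the class, log axis) of the 20 genes with the largest ratio of resting progenitor over all other nuclei, with 1 point per library for resting progenitors and 1 open symbol for the joined libraries of each other class. All points for resting progenitors lie to the right of the microglia and astrocyte symbols, while those of dividing progenitors lie among them for most genes.

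Progenitor transcription factors kept a similar summed level at the resting and committed stages but differed gene by gene. Of 17 tested against committed precursors 3 were higher and 1 lower, with a median gene ratio of 0.33 and a summed log2 ratio of 0.00 (-0.02 to 0.03). Etv5, an ETS factor downstream of growth factor signalling, was 108 CPM in members and 33.7 in committed precursors (1.68, 1.38 to 1.98). Hes1 and Hes5, effectors of Notch signalling, were 1.40 (0.82 to 2.02) and 1.35 (0.82 to 1.90) higher. Etv5 and Hes5 lay above microglia and endothelium in 6 of 6 libraries, but Hes1 did so in none, at 24.2 CPM against 56.7 in endothelium. Nkx2-2, which promotes differentiation, was lower at 25.9 against 96.6 CPM (-1.90, -2.21 to -1.59), and lower in 6 of 6 libraries. Sox6 and Sox5, SOX factors that restrain differentiation, went opposite ways without reaching the 2-fold limit, at -0.52 (-0.57 to -0.47, lower in 6 of 6) and 0.72 (0.64 to 0.79, higher in 6 of 6). Against all other nuclei 9 of 19 were higher and none lower, beside 2.99% and 4.55% of all tested genes.

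The summed level of differentiation transcription factors was lower than in committed precursors but not than in the other nuclei. It was -1.56 (-1.62 to -1.51) against committed precursors and lower in 6 of 6 libraries, with 4 of 11 called lower and 2 higher and a median gene ratio of -0.36. Over all other nuclei the sum was 0.60 (0.55 to 0.64), with 3 of 12 higher and none lower, and over dividing progenitors it was 0.20 (0.04 to 0.38), higher in 3 of 6 libraries. St18, a zinc finger factor of new oligodendrocytes, was 101 CPM in members and 1359 in committed precursors (-3.75, -3.89 to -3.61). Myrf, the master regulator of myelin genes, was 8.56 against 69.1 CPM (-3.01, -3.54 to -2.53), Tcf7l2 was 154 against 714 CPM (-2.21, -2.33 to -2.09), and Zfp488 was -1.85 (-2.31 to -1.40). Myt1, a zinc finger factor of the same family as St18, went the other way, with 283 CPM in members and a ratio of 1.42 (1.25 to 1.59). Its library values had a lowest of 233, a median of 287 and a highest of 394, and were above committed precursors in 6 of 6 libraries. Prrx1, a homeobox factor, was also higher, at 86.0 against 31.3 CPM (1.46, 1.15 to 1.78).

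Outside any list, the 10 genes with the highest ratio over committed precursors included a further ETS factor. This gene, Etv4, stood at 94.8 CPM with a ratio of 2.71 (2.28 to 3.17), and Pstpip2, an adaptor of the actin cytoskeleton, at 204 CPM with 2.81 (2.51 to 3.12). Creb5 (2.73), Masp1 (2.72), Mmp15 (2.58), Rlbp1 (2.51) and E130114P18Rik (2.64) joined them. Mature oligodendrocytes held 213 CPM of Pstpip2. Creb5 was higher still in mature oligodendrocytes, at 664 CPM against 131 in members and 19.8 in committed precursors, whose rule, unlike that of members, limited late oligodendrocyte UMIs. The lincRNAs 6330576A10Rik (3.67, 2.66 to 4.91), Gm29502 (3.21) and Gm38505 (2.72) completed the 10, and Gm38505 was the most frequent of these with 2704 UMIs. Of these 10 genes, 9 lay above microglia and endothelium in 6 of 6 libraries. Against dividing progenitors Etv4 was at 0.00 (-0.48 to 0.52) and Pstpip2 at -0.12 (-0.43 to 0.21), intervals that leave out a 2-fold difference.

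The 10 with the lowest ratio were higher in committed precursors in 6 of 6 libraries. Gm13187 (chr2:4287595-4301167, minus strand) and Gm36988 (chr2:4316479-4318886, plus strand) lie close to each other and were -5.22 (-5.73 to -4.75) and -4.88 (-5.36 to -4.44). Eya2, a transcriptional co-activator, followed at -4.66 (-5.39 to -4.01), with 20 UMIs in all members. On chromosome 9, 5830418P13Rik (chr9:103423578-103461260) and Gm32743 (chr9:103521787-103545977), both annotated antisense, were -4.49 and -3.92. The others were 9130019P16Rik (-4.28), Kif19a (-4.19), the lens filament gene Bfsp2 (-4.00), Rinl (-3.92) and St18. St18 was higher still in mature oligodendrocytes, at 2487 CPM.

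Of the lists, the extracellular matrix and its enzymes lay furthest above all other nuclei. Of 21 genes 13 were higher and none lower, against 2.99% and 4.55% of all tested genes. The median gene ratio was 1.56, and the sum was 1.73 (1.71 to 1.74) with library values from 1.46 to 1.94. Has2, a hyaluronan synthase, had the largest ratio at 3.73 (3.38 to 4.07) with 79 UMIs, and Acan, the aggrecan core protein, 2.99 (2.63 to 3.34) with 73 UMIs. Against committed precursors the list split, with 6 higher and 4 lower. Cspg5, a chondroitin sulphate proteoglycan, was 401 CPM in members, from 328 in library 4 through a median of 421 to 465 in library 5, against 90.7 in committed precursors (2.15, 1.97 to 2.32). Ptprz1 (1.34), a receptor phosphatase that carries chondroitin sulphate, and Xylt1 (1.40) and Chst11 (1.67), enzymes that start and sulphate such chains, were higher as well, as were Sulf1 (1.59) and Acan (1.48). Tnr, tenascin-R, was lower at 2259 against 6303 CPM (-1.48, -1.51 to -1.45) in 6 of 6 libraries, and so were Csgalnact1 (-1.64), Col9a1 (-2.50) and Adamts17 (-1.30). Tnr held 10561 of the list's 38600 UMIs, and the sum was -0.23 (-0.25 to -0.21) while the median gene was 0.25. Against dividing progenitors 1 of 21 was higher, Sulf1 (1.08, 0.25 to 2.05), and 1 lower, Hapln1, a hyaluronan link protein (-1.48, -2.45 to -0.38). Of all tested genes 2.29% were higher and 1.81% lower there, so these single calls say little about the list. Its sum was 0.00 (-0.05 to 0.05).

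Growth factor and ligand receptors other than Pdgfra were higher in sum than in committed precursors and differed little from dividing progenitors. Of 23 tested, Ednrb, an endothelin receptor (1.31, 0.95 to 1.68), and Lifr, the receptor for leukaemia inhibitory factor (1.26, 0.93 to 1.59), were higher than in committed precursors and none was lower. Of all tested genes 2.99% were higher and 3.17% lower there, so these few calls say little about the list. The summed ratio was 0.39 (0.36 to 0.42) with a median gene of 0.35, and the sum was higher in 6 of 6 libraries. Erbb4, a neuregulin receptor, stood at 2579 CPM (2216, 2557 and 3231 as lowest, median and highest library), and with Erbb3, Ntrk2 and Ntrk3 it made up the 4 receptors above microglia and endothelium in 6 of 6 libraries. Igf1r at 328 CPM was below the levels of 347 in microglia and 2401 in endothelium. Against dividing progenitors none was called and the sum was -0.02 (-0.08 to 0.04), which TMM scaling turned to 0.078.

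Most glutamate receptor genes of the AMPA and kainate families stood above microglia and endothelium, and a smaller part of the NMDA list did. In members 13 of 18 AMPA and kainate genes with enough UMIs lay above microglia and endothelium in 6 of 6 libraries, against the 9.23% of all genes. The list was chosen with earlier results known and its genes entered by their UMIs in members, so this count is a description only. The AMPA subunit Gria1, at 428 CPM against 520 in microglia, did not, nor did the auxiliary genes Cacng2, Cacng3, Cnih2 and Cnih3. Gria2, the subunit that limits calcium entry, was 1403 CPM with a narrow library range of 1335 to 1454, against 902 in microglia. Grik1, a kainate receptor subunit, was 342 CPM and ran from 262 to 496 with a median of 369, against 146 in microglia, and was 1.58 (1.42 to 1.75) above committed precursors. Cacng4 was 1.18 (1.06 to 1.29) above them, and these were the only 2 of 18 called, with none lower. The sum of the list was 0.05 (0.03 to 0.08) and the median gene 0.30.

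Of 14 NMDA, delta and metabotropic receptor genes with enough UMIs, 4 stood above microglia and endothelium in 6 of 6 libraries, against 9.23% of all genes. Grin3a and Grm5 were among these 4. Grin2b, an NMDA receptor subunit, was 422 CPM in members, 715 in microglia and 496 in endothelium, and ran from 283 to 659 across libraries. At 2000 UMIs a Grin2b UMI was found in 43.0% of members and 60.0% of microglia. The rule limited neuronal UMIs in members, and its part in the Grin2b level, like that of free RNA, was not tested. Grin3a, a modulatory NMDA subunit that lowers calcium flow, was 415 CPM (335, 409 and 530 as lowest, median and highest) against 79.9 in microglia. It was the 1 gene of the list higher than in committed precursors, at 1.27 (1.14 to 1.41) in 6 of 6 libraries, and the 1 higher than in all other nuclei, at 1.64 (1.58 to 1.71), while 8 of 15 were lower there, Grin2a (-1.74) and Grin2b (-1.63) most. The sum over all other nuclei was -0.39 (-0.40 to -0.37) and lower in 6 of 6 libraries.

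Of 13 GABA receptor subunits 2, Gabra3 and Gabrg1, stood above microglia and endothelium in 6 of 6 libraries, a share near the 9.23% of all genes, with Gabrg1 at 50.5 CPM against 15.5 in endothelium, and Gabra3 at 80.6 CPM against 43.7 in microglia and 27.7 in endothelium. None of 14 was called against committed precursors, although the sum was 0.39 (0.35 to 0.43) and higher in 6 of 6 libraries. Over all other nuclei the sum was -0.80 (-0.83 to -0.78), lower in 6 of 6 libraries, with 1 of 14 genes higher and 3 lower. Of the 14, only Gabrd was called higher than in dividing progenitors (1.04), where 2.29% of all tested genes were. Its interval of -0.89 to 4.13 included no difference.

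Of 32 voltage-gated and inward rectifier channel genes 4 were called higher at the resting than at the committed stage, against 2.99% of all tested genes. Kcnd2, which encodes the Kv4.2 channel, was 3911 CPM in members (3687, 3801 and 4635 as lowest, median and highest library) and 1490 in committed precursors (1.39, 1.35 to 1.44). Kcnd3, encoding Kv4.3, was 1.05 (0.90 to 1.19), and Kcnip3, encoding a subunit that binds Kv4 channels, was 1.49 (1.34 to 1.64), at 367 against 131 CPM. With Kcnj16, an inward rectifier (1.09, 0.46 to 1.75), these were the 4, and none was lower. Kcnip4, whose product also binds Kv4 channels, was not called, at 0.08 (0.04 to 0.12). The list's sum was 0.46 (0.44 to 0.48), higher in 6 of 6 libraries, and its median gene was 0.41. Over all other nuclei the channel sum was -0.47 (-0.48 to -0.45), lower in 6 of 6 libraries, with 2 of 32 genes higher and 5 lower. In 11 of 32 channels the members stood above microglia and endothelium in 6 of 6 libraries, against 9.23% of all genes. Kcnip4 did so in none, at 4613 CPM in microglia. Of 32 channels 1, Kcna1, was called higher than in dividing progenitors (1.04), with an interval of -0.11 to 2.51 that included no difference, and this share was near the 2.29% of all tested genes.

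**Figure D3:**
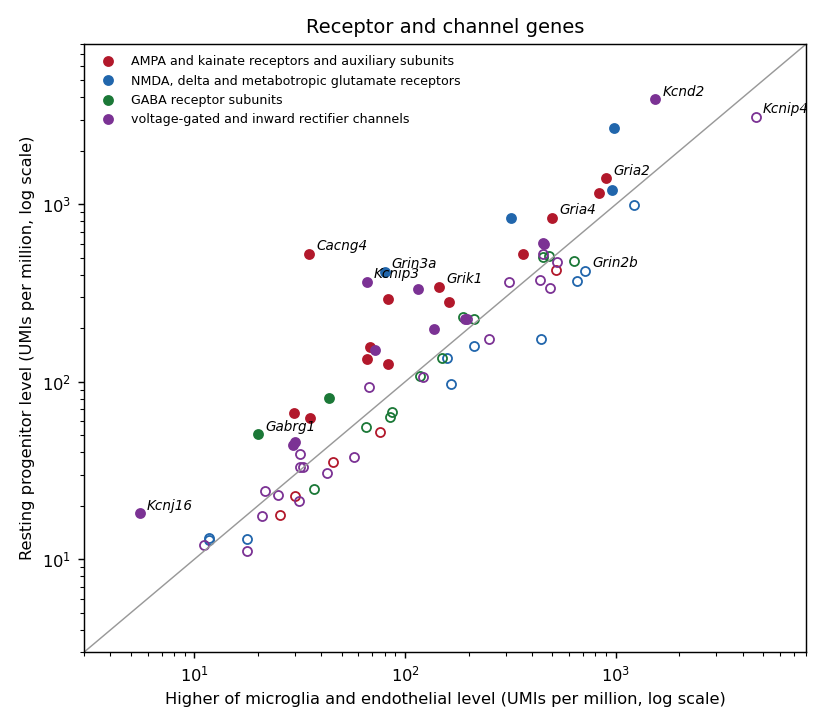
Level in resting progenitors (vertical, CPM, log axis) against the higher of the microglia and endothelial levels (horizontal, same unit, log axis) for receptor and channel genes with at least 50 UMIs in members, coloured by list. Filled points lie above both other classes in 6 of 6 libraries, open points do not, and Cacng4, Grin3a and Kcnip3 lie far above the diagonal of equal levels while Grin2b lies below it.

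Of the lists by function, synaptic and contact adhesion genes had the largest share above microglia and endothelium in 6 of 6 libraries, at 21 of 28. The share over all genes was 9.23%. Lhfpl3 (1.58, 1.54 to 1.62), Nxph1, a secreted neurexin ligand (1.11, 1.05 to 1.17), and Slitrk1 (1.02, 0.61 to 1.45) were higher than in committed precursors. Opcml, a GPI-anchored adhesion molecule, was lower at 4820 against 10336 CPM (-1.10, -1.12 to -1.08), and its level was even across libraries at 4745 to 4891 CPM. The sum was 0.17 (0.16 to 0.18) and the median gene 0.24. Against all other nuclei 8 were higher, led by Lhfpl3, Nxph1 (2.12) and Dscam (1.80), and 3 lower, which were Cntn5 (-1.47), Cntnap4 (-1.36) and Cntnap2 (-1.30). None of 28 was called against dividing progenitors.

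Myelin and late oligodendrocyte genes separated members from committed precursors most strongly of the lists. Of 17 tested 9 were lower and 1, Aspa, was called higher (1.14, 0.38 to 1.98, from 58 UMIs), although its 12.4 CPM lay below the 29.4 of microglia. The median gene ratio was -1.17 and the sum was -1.86 (-1.89 to -1.83), lower in 6 of 6 libraries. These counts leave out Mog, Mag, Mobp, Mal and Opalin, which the rule limited in committed precursors and not in members. Of these late myelin genes, Mobp was 169 CPM in members against 32.2 in committed precursors, Mog 38.7 against 11.8 and Mal 29.9 against 12.1, each higher in 6 of 6 libraries and each below its level in microglia. Mag was 45.6 against 27.5 CPM, higher in 3 libraries and lower in 3, and Opalin 9.20 against 1.48 CPM, higher in 5 of 6. The part of that limit in the ratio of Aspa was not tested. Bcas1, a gene of early myelinating cells, was 338 against 3003 CPM (-3.15, -3.23 to -3.08). Nfasc, an adhesion molecule of the paranode, was 226 against 1826 CPM (-3.01, -3.11 to -2.92), Sirt2, a deacetylase of myelin sheaths, was -2.48 (-2.62 to -2.36), and Fa2h, which hydroxylates myelin lipids, was -2.15 (-2.37 to -1.93). Yet Bcas1, Gal3st1 and Enpp2 were above microglia and endothelium in 6 of 6 libraries. Against all other nuclei the sum was 0.33 (0.31 to 0.36) and became -0.054 by mean per-nucleus CPM. Fa2h was also called higher in resting than in dividing progenitors, at 48.1 against 12.4 CPM (1.95, 0.71 to 3.59), where the dividing level rested on few UMIs.

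Mbp, the myelin basic protein gene, behaved differently. It was 1350, 1027, 262, 270, 1201 and 117 CPM in members of libraries 1 to 6, high in libraries 1, 2 and 5 and low in 3, 4 and 6. Mature oligodendrocytes were 3.64%, 3.45% and 2.67% of nuclei in libraries 1, 2 and 5 and 0.527%, 0.599% and 0.694% in libraries 3, 4 and 6, and their part in the Mbp level was not tested. Microglia stood at 1068 CPM, astrocytes at 1443 and endothelium at 1111 in the joined libraries, so the members were below all 3. Mbp was not called against committed precursors (-0.80, -0.87 to -0.74, lower in 6 of 6).

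Cell cycle genes gave the largest differences from dividing progenitors, a contrast that the rule itself fixed through Top2a and Mki67, so the counts are a description. All 9 tested mitosis genes were lower, among them Cenpe (-6.24), Knl1 (-6.22), Cenpf (-5.66) and Kif11 (-5.48), and the sum was -5.35 (-5.55 to -5.16). Of 9 DNA replication genes, Brip1 (-4.31, -5.05 to -3.59) and Pola1, a subunit of the polymerase that primes replication (-1.81, -2.12 to -1.50), were lower. Ccne2 (-2.10), cyclin E2, and Rbl1 (-1.89), a retinoblastoma relative, were lower of 9 G1 cyclins and inhibitors. Outside the lists, the noncoding Lockd (-5.77), Kif15 (-5.61) and Cenpp (-4.08) were, with Knl1 and Kif11, the 5 lowest called genes among those with at least 100 UMIs in the dividing class. The 5 highest with at least 100 UMIs in members, Gpr176 (3.66, 1.16 to 8.97), Map4k2 (3.37), Ebf1 (3.25, 2.02 to 4.88), Tmem150c (3.21) and Hs3st2 (2.71), had wide intervals because few UMIs were read in 76 dividing nuclei, and none lay above microglia and endothelium in 6 of 6 libraries.

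Of the G1 cyclins and inhibitors, 2 were called higher than in committed precursors, against 2.99% of all tested genes. Ccnd1, cyclin D1, was 37.6 against 16.8 CPM (1.16, 0.72 to 1.62) and Cdk6, its partner kinase, 43.6 against 14.8 CPM (1.56, 1.11 to 2.04), both higher in 6 of 6 libraries. In all 12 were tested, with none lower, and the sum was 0.38 (0.27 to 0.50) with a median gene of 0.32. Neither stood above microglia and endothelium in all libraries, since endothelium held 47.5 CPM of Ccnd1 and microglia 104 CPM of Cdk6. DNA replication genes summed to 192 CPM in members and 118 in committed precursors, a log2 ratio of 0.70 (0.53 to 0.88) that was higher in 6 of 6 libraries, although none of 7 was called. Against all other nuclei 5 of 16 replication genes were higher, beside 2.99% of all tested genes, with Mcm6, a subunit of the replicative helicase, at 1.76 (1.30 to 2.17).

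**Figure D4:**
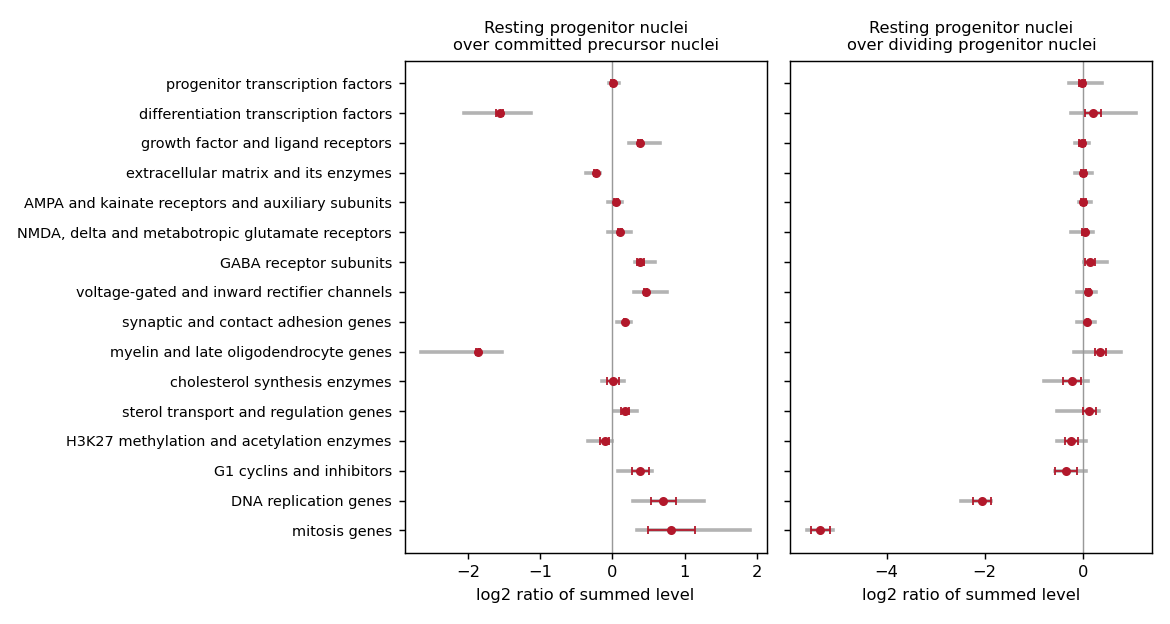
Log2 ratio of the summed level of each gene list in resting progenitors over committed precursors (left) and over dividing progenitors (right), with points for the joined libraries, red bars for 95% counting intervals and grey bars for the range over 6 libraries. Differentiation factors (-1.56) and myelin genes (-1.86) lie far below 0 on the left, and replication (-2.06) and mitosis genes (-5.35) on the right.

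Genes of sterol handling and of histone H3 lysine 27, which the study was concerned with, gave few calls, as did all tested genes. Against committed precursors 2.99% of all tested genes were called higher and 3.17% lower, so few calls in short lists say little about them. Nuclei of WT and Npc1-/- mice were joined in every class. No tested gene of 22 cholesterol synthesis enzymes was called in any comparison, the sum was 568.5 CPM in members (library range 511 to 620), and its ratio was 0.01 (-0.08 to 0.09) over committed precursors and became -0.052 by mean per-nucleus CPM and -0.095 after thinning. Over all other nuclei it was 0.05 (-0.00 to 0.11) and became -0.046 by TMM scaling, -0.19 by mean per-nucleus CPM and -0.099 after thinning. Abcg1, a cholesterol exporter, was the 1 of 19 sterol transport genes higher than in committed precursors (1.26, 0.85 to 1.69), a share near that of all tested genes. The sterol transport sum was 0.18 (0.12 to 0.23) over committed precursors and 0.39 (0.36 to 0.43) over all other nuclei, higher in 6 of 6 libraries in both. Npc1 was 61.2 CPM in members, with library values of 35.2 to 73.2 and a median of 65.7, and was 1.08 (0.91 to 1.25) over all other nuclei but below 2-fold against committed precursors (0.31, 0.03 to 0.60). Microglia held 56.6 CPM of Npc1. Its RNA was read in members of every library, although the libraries came from both WT and Npc1-/- mice. No tested gene of 15 enzymes of H3K27 methylation or acetylation was called in any comparison, with Ezh2, the methyltransferase, at 61.6 CPM and -1.78 (-2.13 to -1.41) against dividing progenitors, lower in 5 of 6 libraries. Lhfpl4 (40.6 CPM), Cpeb1 (51.3 CPM) and Kcna6 (43.8 CPM), further genes that the study examined, were not called in any comparison, and of these Kcna6 was above microglia and endothelium in 6 of 6 libraries.

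A small set of genes was dispersed among members, in which doublets were kept. An overdispersion index, 1 for counting noise at a nucleus's depth, had a median of 1.14 and a 95th percentile of 1.98 over 4468 genes with at least 200 UMIs. St18 had an index of 10.9. It was read in 92 members (8.57%), and the 11 members with the most St18 UMIs held 64.5% of them. Most other members had no St18 UMI while the highest had 62. At 2000 UMIs 5.46% of members and 10.4% of microglia held one. Other high indices belonged to Malat1 (16.6), Kcnip4 (16.6), Ptprd (14.7), Mbp (12.6), Trpm3 (10.1) and Meg3 (10.1). For the same relative spread the index rises with a gene's level, so it does not rank genes by how heterogeneous they were. Malat1 was read in all members, and the richest 10% of members held 26.3% of its UMIs. Kcnip4 and Ptprd were read in 98.9% and 99.7% of members, and the richest 10% of members held 50.7% and 48.4% of the UMIs. The share that depth alone would give was not computed. Several of these genes were higher in other classes, with Kcnip4, Ptprd and Meg3 at 11168, 12860 and 9232 CPM in excitatory neurons against 3106, 3509 and 3105 in members. Mbp was 6302 CPM in mature oligodendrocytes against 771 in members. The part of doublets in the dispersion was not tested. Among the 15 genes of highest index, only Lsamp (7.41), an adhesion gene, and Gpc5 (7.37), a glypican, were above microglia and endothelium in 6 of 6 libraries. Gpc5 was 1.84 over committed precursors on the log2 scale.

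Genes that were uneven between libraries in members were often uneven in other classes too. A between-library index, computed over 1782 genes with at least 500 UMIs, had a median of 2.67 and a 95th percentile of 23.8. The index grows with a gene's UMI count for the same fold range, so it favours abundant genes. Malat1 scored 687 with a 1.53-fold range, and Htr2c 39.1 with levels from 17.0 to 211 CPM. Kcnip4 was 2698, 2947, 3493, 4870, 1895 and 2447 CPM in members of libraries 1 to 6, highest in library 4. Astrocytes, endothelium and committed precursors were also highest for Kcnip4 in library 4, and so they were for Meg3, Celf2, Ptprd and Tenm2. Microglia were highest in library 4 for Meg3, Celf2 and Tenm2, but in library 5 for Kcnip4 and library 2 for Ptprd, while excitatory neurons varied at most 1.26-fold in these genes. Cmss1 was 1977 CPM in library 5 and 1309 in library 6 against 385 to 592 in the other 4, and Gm42418 was highest in library 5 in all 6 classes examined. None of the 10 genes of highest index stood above microglia and endothelium in 6 of 6 libraries. With 9.23% of all genes doing so, this count carries little information.

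**Figure D5:**
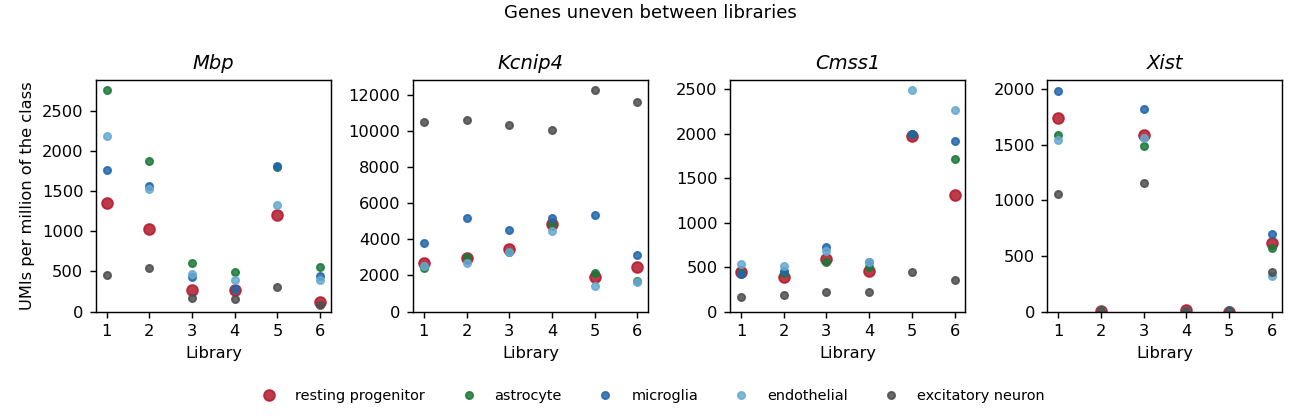
Levels (CPM of the class) of 4 genes that were uneven between libraries, with 1 point per class in each of libraries 1 to 6. Resting progenitor points broadly follow those of astrocytes and endothelium, but not at every step. Mbp was high in libraries 1, 2 and 5, where mature oligodendrocytes were also most frequent (2.67% to 3.64% of nuclei), and Cmss1 in libraries 5 and 6. For Kcnip4, members rose from 1895 to 2447 CPM between libraries 5 and 6, while astrocytes fell from 2117 to 1666 CPM.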

How the data were processed

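Forebrain nuclei of 6 mice were sequenced by the authors. The deposited matrix holds raw UMI counts for 32285 features and 75878 barcodes. Its header names Cell Ranger 6.0.0, while the submitters' processing notes name Cell Ranger 2.1.1 and mm10, and the study's methods STARsolo, EmptyDrops and DoubletFinder, so which tools made the matrix is not known. Features sharing a symbol were summed. Barcodes with a mitochondrial share under 10% were kept (11 left out). Classes were defined by UMI counts, and the members and all 25 gene lists were chosen with earlier results of these data known. UMIs were summed per class and library and scaled to CPM, counts per 1000000 UMIs. Log2 ratios have exact binomial-split intervals and need at least 50 UMIs over both classes (Python 3.11.15, scipy 1.17.1). Thinning was to 2000 UMIs. Scrublet (scanpy 1.11.5) marked 19 barcodes and was judged not to have worked, so doublets stayed and an alternative removed the top 8% of scores. TMM factors came from edgeR 4.0.16. No p-value was computed, as the classes were defined from the same counts, and barcode suffixes are not paired with mice. Named genes were the 20 leading, 10 highest and 10 lowest against committed and 5 against dividing nuclei, 15 most dispersed, 10 most uneven, members called, and up to 6 of each list by level or ratio. Some genes of the lists are not reported here. Steps were tested on simulated data.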

Additional observations from a re-analysis of the deposited data

How the results depend on the processing

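No paired analysis was possible because no result comes from a test and WT could not be set against Npc1-/-. Class ratios were also taken within each library, where a call needed 1 direction in 6 of 6. The share of members became 0.837% with at least 3 UMIs of Pdgfra and 0.492% with no UMI of the excluded sets, 1.40% after removal of high doublet scores and 1.37% to 1.47% with 1 library left out. The count of genes higher than in dividing progenitors became 439 by TMM scaling, and the count lower than in them 106 with 3 UMIs of Pdgfra, 60 with no excluded UMI and 68 after thinning, where fewer nuclei or UMIs remained. The count lower than in all other nuclei became 1686 by mean per-nucleus CPM, and the cause was not tested. Leaving out 1 library gave 329 to 401 and 357 to 379 genes higher and lower against committed precursors, 300 to 349 and 173 to 222 against dividing progenitors, and 664 to 735 and 1027 to 1250 against all other nuclei, where 5 libraries in place of 6 had to share a direction.

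With no excluded UMI, log2 ratios over committed precursors changed sign for AMPA and kainate genes (-0.00067), microglia markers (-0.18) and fibroblast markers (0.072), over dividing progenitors for adhesion genes (-0.069), and over all other nuclei for mitosis genes (-0.031) and endothelial markers (0.071). By mean per-nucleus CPM they did so over all other nuclei for myelin genes (-0.054), G1 genes (-0.088) and microglia markers (-0.61), the last also after thinning (-0.23). Among list ratios, 275 other values lay outside the counting interval of the main ratio and 690 lay inside it. Some of these 275 crossed 0 from a ratio whose interval reached 0, such as ependymal markers over committed precursors (0.99 with no excluded UMI) and AMPA and kainate genes over all other nuclei (0.15 by mean per-nucleus CPM).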

Other observations

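Xist, the noncoding RNA of the inactive X chromosome, was the gene most uneven between libraries in members, at 1742, 1.66, 1585, 10.3, 0 and 618 CPM in libraries 1 to 6. Summed levels of the Y-linked genes Ddx3y, Uty, Kdm5d and Eif2s3y were 0, 398, 1.11, 398, 545 and 0 CPM in the same order. At least 2 Xist UMIs with no Y-linked UMI were found in 86.6% (81.2 to 90.9) of members of library 1, 91.2% (86.3 to 94.8) of library 3 and 39.0% (29.4 to 49.3) of library 6. Members of library 6 were thus lower in Xist than those of libraries 1 and 3 although no Y-linked UMI was read in them, and microglia, astrocytes and endothelium of library 6 were lower in Xist than those of libraries 1 and 3 as well.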
